A study of Mus musculus with 20 samples.

Results

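Motor neurons of a cranial type, labelled NIP, were followed from an early to a late stage of stress in the endoplasmic reticulum (ER), the compartment in which secreted and membrane proteins are folded. The comparison uses 8 of the 20 libraries of the series, namely every NIP library of the later pair of times, in 4 groups of 2: 36 h with 20 µM cyclopiazonic acid (CPA), 36 h untreated, 12 h with 20 µM CPA and 12 h untreated. All were made from mouse embryonic stem cells turned into motor neurons and were at day 2 when treatment began; in this field NIP stands for cells that express Neurog2, Isl1 and Phox2a from a transgene, so reads at those genes may come from the transgene or from the cell's own copy. The labels conflict on the times: titles and the extraction protocol name 36 h and 12 h, but treatment and series design text name 12 h and 6 h. Groups follow the titles. The question asked here was for which genes the response to CPA, treated minus untreated at the same time, differed between 36 h and 12 h, with the replicate number of the titles kept as a block. The labels do not say whether replicates 1 and 2 were separate cultures, so the p-values cover the spread from library to library, which may be technical.

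CPA blocks the SERCA pumps that move calcium into the ER, and folding enzymes that need calcium then fail. Cells answer with the unfolded protein response, which has a trio of sensors in the ER membrane. IRE1 splices the messenger of Xbp1 and ATF6 is cut to free a transcription factor, and both routes raise chaperones and the machinery that removes misfolded proteins. PERK slows translation and lets ATF4 and CHOP, the product of Ddit3, be made, which raise genes of amino acid supply and, on prolonged stress, of cell death. Parts of this response are known to be shut off again while others persist, and motor neurons are a cell type in which prolonged ER stress is studied for amyotrophic lateral sclerosis.

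Reads assigned to genes ran from 12841050 to 30321152 per library. Rn45s, the ribosomal precursor, took 38.56% of them in untreated replicate 1 at 36 h and 7.23% to 14.0% in the other 7 libraries. CPA replicate 2 at 36 h stood apart in another way: the summed level of 19 endoderm and endothelium markers was 9181 CPM (counts scaled to library size) there and 3312 to 3983 CPM in the other replicate 2 libraries, against 508 to 1054 CPM in the replicate 1 libraries. The NIP label held against its markers in all 8 libraries, since 6 neuron markers summed to 2997 to 5967 CPM, while the spinal markers Mnx1, Lhx3 and Isl2 summed to 4.12 to 19.9 CPM. Of the cranial motor neuron markers, Phox2a, which the transgene also supplies, was at 54.4 to 213 CPM and Tbx20 at 4.35 to 119.6 CPM. Chat, the enzyme that makes acetylcholine, was at 5.50 to 9.66 CPM. The part that these other cells and the ribosomal reads played in the results below was not tested, beyond the values without each library and without Rn45s.

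The response to CPA differed between 36 h and 12 h for 192 of 14065 genes tested, 1.37% of them, at an adjusted p under 0.05 (edgeR's quasi-likelihood test, adjusted by Benjamini and Hochberg over all genes). Of these, 95 were higher and 97 lower at 36 h, and 2125 genes had an unadjusted p under 0.05. At 36 h 1833 genes differed between CPA and untreated cultures (836 higher and 997 lower, 13.0% of genes), and at 12 h 2326 did (1152 higher and 1174 lower, 16.5%). A set of 907 genes was called at both times, which is 49.5% of the calls at 36 h and 39.0% of those at 12 h, and across all genes the log2 changes at 36 h and 12 h correlated with r = 0.544, a description over genes that are not independent. The calls rest on the block: without it 0 genes passed for the difference between times, 1031 had an unadjusted p under 0.05, and 352 and 527 genes were called at 36 h and 12 h.

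The size of that count depended on single libraries. Without untreated replicate 1 at 36 h, the library rich in Rn45s, only Fgf15 still passed, and without its partner, replicate 2, 46 genes did. The count was 1119 without CPA replicate 1 at 36 h and 645 without CPA replicate 2, and it was 86 and 29 without CPA replicates 1 and 2 at 12 h and 132 and 47 without the untreated ones. The sign of the difference was the same as with all 8 libraries for each of the 192 genes in each of these fits, although genes chosen for a large difference are likely to keep it. A fit of all 20 libraries of the series with the block called 161 genes, 109 of the 192 among them, and for genes described with their levels or differences below, its adjusted p is given where it did not call them.

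By the calls at each time the genes fell into 4 classes. Lasting genes, called at both times in the same direction, numbered 877 (455 raised and 422 lowered by CPA), and for 857 of them the difference between times was not called. Transient genes, called at 12 h and not at 36 h with a difference in the opposite sense, numbered 75: 26 had risen and 49 had fallen at 12 h. Late genes, called at 36 h and not at 12 h with a difference in the same sense, numbered 67, with 30 raised and 37 lowered at 36 h. In 30 further genes CPA acted in opposite directions at the 2 times, and 13 of these were raised and 17 lowered at 36 h. A gene called at a single time is in the transient or late class only where the difference itself passed, so 859 genes called at 36 h alone and 1344 called at 12 h alone are in no class. Without untreated replicate 1 at 36 h the lasting, transient, late and reversed classes held 237, 1, 0 and 2 genes, and without CPA replicate 1 at 36 h 1493, 371, 502 and 114. At the edge of the threshold stood Tro and Hcrtr1, just inside with an adjusted p of 0.04995, and Clstn2, just outside at 0.0503.

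**Figure D1:**
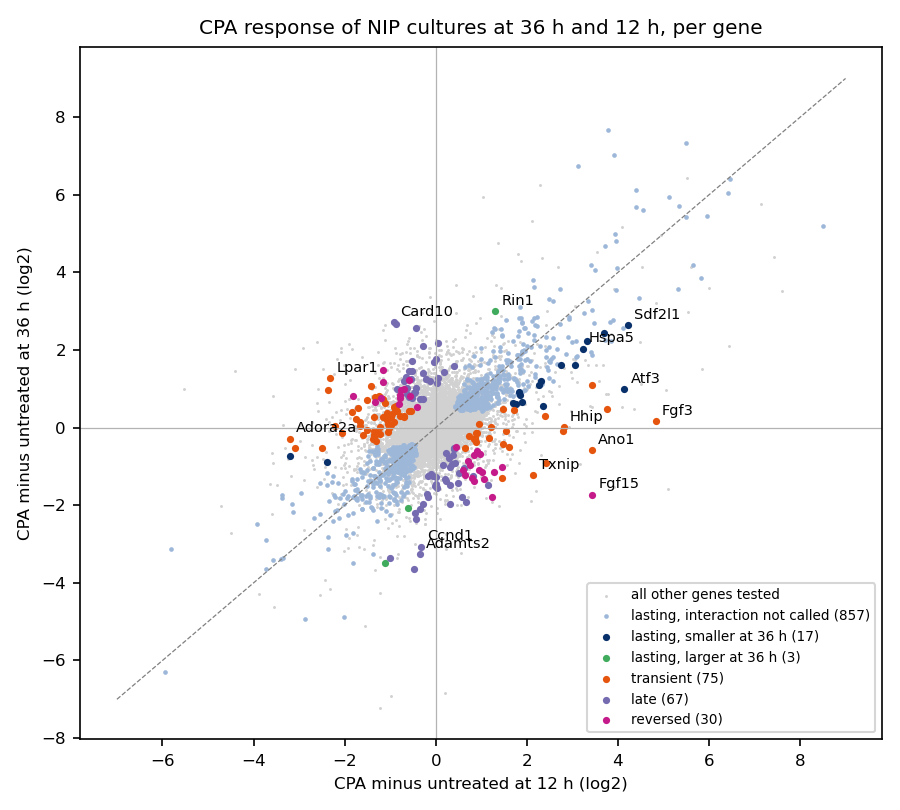
Each point is a gene; the vertical axis gives the log2 change of CPA against untreated NIP cultures at 36 h and the horizontal axis the same at 12 h, with the dashed line marking equal changes. Coloured points are the 192 genes whose change differed between the times and the 857 lasting genes whose change did not pass that test; Hspa5, Sdf2l1 and Atf3 lie right of the line, raised at both times and less at 36 h, while Fgf15 and Ccnd1 lie low.

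A change of response can come from the CPA cultures, from the untreated cultures or from both. For 155 of the 192 genes the CPA cultures themselves differed between 36 h and 12 h (1289 genes did in all, 9.16%; 708 or 5.03% were higher and 581 or 4.13% lower), for 34 the untreated cultures did (112 in all, 0.796%; 86 or 0.611% were higher and 26 or 0.185% lower), for 11 both did and for 14 neither comparison passed. The 4 comparisons share libraries and are given side by side only.

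Genes of protein folding in the ER stayed raised at 36 h, some of them by less than at 12 h. CPA raised 13 of 19 ER chaperone genes at 36 h and 16 of 19 at 12 h, beside 5.94% and 8.19% of all genes, and lowered none of the 19 at either time. Of all genes 7.09% and 8.35% were lowered at 36 h and 12 h, and these shares stand for every list below. The median of the list was a log2 change of 1.15 at 36 h and 1.91 at 12 h, where the median of all genes was 0.02 and -0.02. The rise was smaller at 36 h for Hspa5, Dnajc3 and Sdf2l1, 3 of the 19 (0.690% of all genes were lower in this test). The median difference over the 19 was -0.46, where that of all genes was 0.01.

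Hspa5 encodes BiP, the main chaperone of the ER and the protein that keeps the stress sensors inactive (chromosome 2, 34772090 to 34776529, GRCm38). It had 1297 and 1206 CPM with CPA and 293 and 318 CPM untreated at 36 h, against 3025 and 3466 CPM with CPA and 340.1 and 353 CPM untreated at 12 h, replicates 1 and 2 in that order here and below. The CPA levels at 36 h lay between those at 12 h and the untreated ones, with no overlap, and the untreated levels of the 2 times were close. The log2 change was 2.04 ± 0.15 at 36 h and 3.23 ± 0.16 at 12 h, and the difference -1.19 ± 0.21 (SE; adjusted p = 0.0297). It did not pass in the fit of all 20 libraries with the block (adjusted p = 0.111).

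Sdf2l1, a partner of BiP that assists its cycle of substrate release (chromosome 16, 17130138 to 17132383), had 60.4 and 50.5 CPM with CPA and 8.01 and 9.41 CPM untreated at 36 h, against 213 and 224 CPM with CPA and 13.0 and 10.4 CPM untreated at 12 h. Its difference was -1.58 ± 0.23 (adjusted p = 0.0163). Dnajc3 encodes p58IPK, a BiP co-chaperone that also restrains PERK. It stood at 122 and 91.9 CPM with CPA and 32.3 and 36.6 CPM untreated at 36 h, and at 313 and 331 CPM with CPA and 39.5 and 37.8 CPM untreated at 12 h, a difference of -1.44 ± 0.23 (adjusted p = 0.0187). In the fit of all 20 libraries Sdf2l1 did not pass (adjusted p = 0.0951) and Dnajc3 did (adjusted p = 0.0399). In both genes the CPA libraries of the times did not overlap, and at 36 h all CPA values were above all untreated ones.

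Other chaperones of the list gave smaller differences that did not pass. Hyou1, a large chaperone that exchanges nucleotide on BiP, changed by 1.64 at 36 h and 2.67 at 12 h (difference -1.03 ± 0.23, adjusted p = 0.0671). Hsp90b1, the ER form of HSP90, changed by 1.90 and 2.86 (difference -0.96 ± 0.22, adjusted p = 0.0743). Calr, the calcium-binding lectin calreticulin, had 1217 and 1408 CPM with CPA and 348 and 429 CPM untreated at 36 h, against 1574 and 1565 CPM with CPA and 399 and 413 CPM untreated at 12 h, with a difference of -0.20 ± 0.21 (adjusted p = 0.708). Calr was thus raised about as much at both times while Hspa5 was not, though the 2 genes were not tested against each other; Hsp90b1 and Calr were chosen after their values were seen.

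Protein disulfide isomerases and oxidases form disulfide bonds in the ER. CPA raised 10 of 14 of these genes at 36 h and 11 of 14 at 12 h, beside 5.94% and 8.19% of all genes. The difference between times passed for Pdia4 and Ero1lb, both lower at 36 h. Pdia4 had 235 and 243 CPM with CPA and 74.7 and 80.9 CPM untreated at 36 h, against 492 and 652 CPM with CPA and 81.5 and 88.6 CPM untreated at 12 h. For Pdia4 the difference was -1.12 ± 0.20 (adjusted p = 0.0303). Ero1lb, the oxidase that recharges the isomerases, had 25.6 and 18.3 CPM with CPA and 16.6 and 13.1 CPM untreated at 36 h, against 68.0 and 51.9 CPM with CPA and 12.4 and 10.7 CPM untreated at 12 h. For Ero1lb the difference was -1.81 ± 0.20 (adjusted p = 0.00644). Its CPA values at 36 h were close above the untreated ones, and the rise at that time was 0.56 ± 0.15. With all 20 libraries Ero1lb passed and Pdia4 did not (adjusted p = 0.000829 and 0.112).

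ER-associated degradation draws misfolded proteins out of the ER for destruction. In it 11 of 25 genes were raised at 36 h and 15 of 25 at 12 h, beside 5.94% and 8.19% of all genes. The rise was smaller at 36 h for 4 of the 25, Sdf2l1 among them. The other 3 belong to the HRD1 ubiquitin ligase or its surroundings. Herpud1, a membrane protein that helps to assemble that complex, had 108 and 130.4 CPM with CPA and 24.4 and 26.4 CPM untreated at 36 h, against 225 and 301 CPM with CPA and 22.5 and 30.6 CPM untreated at 12 h. For Herpud1 the difference was -1.08 ± 0.19 (adjusted p = 0.0307). Sel1l, the subunit that holds the ligase in place, had 345 and 397 CPM with CPA and 166 and 179.9 CPM untreated at 36 h, against 826 and 813 CPM with CPA and 163 and 180.1 CPM untreated at 12 h. For Sel1l the difference was -1.16 ± 0.19 (adjusted p = 0.0207). Syvn1, the ligase itself, gave -0.91 ± 0.19 (adjusted p = 0.0474). With all 20 libraries Sel1l passed (adjusted p = 0.0306), and Herpud1 and Syvn1 did not (0.114 and 0.116). All 4 were still raised at 36 h, with no overlap between CPA and untreated libraries.

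Beyond these lists, Sec24d, a coat protein of vesicles that leave the ER, was raised by 0.83 at 36 h and 1.85 at 12 h (difference -1.02 ± 0.18, adjusted p = 0.0307) and was the only 1 of 32 genes of ER to Golgi transport to pass. It did not pass with all 20 libraries (adjusted p = 0.204). Among 33 genes of ER entry and glycosylation, 18 rose and 1 fell at 36 h and 25 rose at 12 h, and for 0 of them did the difference between times pass. Of the 15 lasting genes with a smaller rise at 36 h, 8 are Hspa5, Sdf2l1, Dnajc3, Pdia4, Ero1lb, Herpud1, Sel1l and Syvn1. All 15 also differed between CPA cultures at 36 h and 12 h, and 0 of 15 between the untreated cultures, beside 9.16% and 0.796% of all genes. The 15 were chosen by calls on the same libraries, so this is a description.

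**Figure D2:**
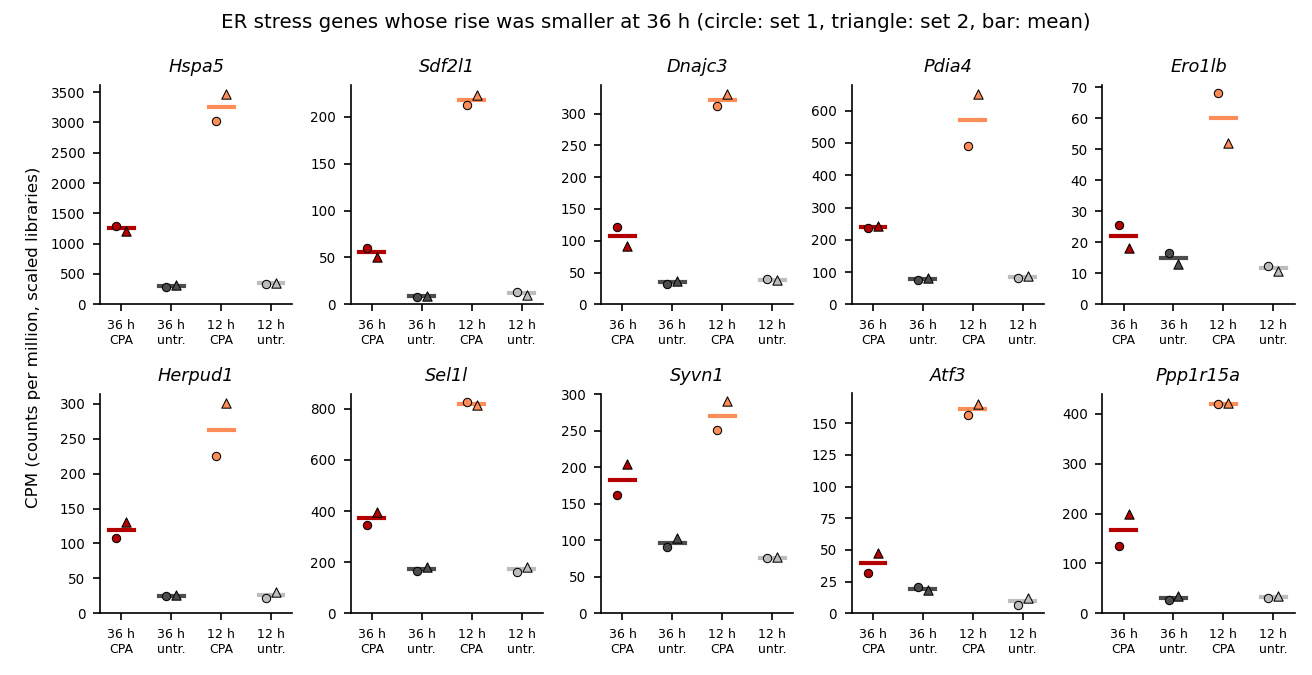
Levels (CPM) of 10 ER stress genes in each of the 8 NIP libraries, by group on the horizontal axis (circles for replicate 1, triangles for replicate 2, bars for the mean). In each panel the CPA libraries at 36 h sit above both untreated groups and below the CPA libraries at 12 h, as for Hspa5 with 1297 and 1206 CPM at 36 h against 3025 and 3466 CPM at 12 h.

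Promoters of 4 of these genes are shown because they hold an exact match to a response element known from this pathway. Each is the run of 250 bases before the start site in RefSeq's annotation of GRCm38.p6, read 5′ to 3′ on the gene's own strand, with matches in capitals. The searches covered both strands of the window from 250 bases before to 50 after each start for CCAAT followed after 9 bases by CCACG (the ER stress element), TGACGTGG (an ATF6 and XBP1 site), TGATGNAA (the composite site of ATF4 with a C/EBP partner) and TGACGTCA (the cyclic AMP response element). Of all 32851 promoter windows these stood in 0.119%, 0.676%, 3.97% and 1.79%. Hspa5 lies on the plus strand at chr2:34771840-34772089 and holds the ER stress element from 65 bases before its start. Herpud1 lies on the plus strand at chr8:94386179-94386428 and Atf3 on the minus strand at chr1:191183334-191183583, and both hold the ATF4 composite site in reverse orientation, from 112 and 110 bases before the start. Ppp1r15a lies on the minus strand at chr7:45526269-45526518 and holds the cyclic AMP response element from 12 bases before its start.
Hspa5: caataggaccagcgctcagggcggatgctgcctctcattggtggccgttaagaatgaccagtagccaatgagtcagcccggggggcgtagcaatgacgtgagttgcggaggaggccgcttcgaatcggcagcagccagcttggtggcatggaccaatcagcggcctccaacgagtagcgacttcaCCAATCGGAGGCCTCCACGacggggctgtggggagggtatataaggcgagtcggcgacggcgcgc
Herpud1: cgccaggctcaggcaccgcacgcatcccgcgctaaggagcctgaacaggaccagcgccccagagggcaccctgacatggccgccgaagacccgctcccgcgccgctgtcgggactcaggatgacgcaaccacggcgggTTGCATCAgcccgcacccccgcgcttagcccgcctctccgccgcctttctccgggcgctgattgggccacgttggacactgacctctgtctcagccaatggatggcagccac
Atf3: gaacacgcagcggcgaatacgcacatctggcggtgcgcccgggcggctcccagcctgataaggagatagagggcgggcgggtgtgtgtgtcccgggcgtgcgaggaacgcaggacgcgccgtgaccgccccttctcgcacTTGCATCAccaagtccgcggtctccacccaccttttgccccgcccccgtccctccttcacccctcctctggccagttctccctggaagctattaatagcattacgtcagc
Ppp1r15a: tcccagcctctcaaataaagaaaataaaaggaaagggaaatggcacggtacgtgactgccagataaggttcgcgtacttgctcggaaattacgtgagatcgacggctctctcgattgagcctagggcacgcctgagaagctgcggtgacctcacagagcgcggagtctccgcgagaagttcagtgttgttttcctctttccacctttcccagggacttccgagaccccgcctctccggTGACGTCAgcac

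Of 51 genes named for the classes or fixed for this pathway, 39 had a promoter in the table and 14 of these held at least 1 of the 4 motifs, 10 of them the ATF4 composite site. A gene counts here if any of its windows holds a match, while the shares of all promoters are per window. The 10 include Chac1, Trib3, Asns, Slc7a11, Herpud1 and Atf3, which were fixed for this pathway. These counts therefore cannot be set against those shares. A match describes the letters in this window and is no evidence of binding, and a window without a match says nothing about the factor.

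In the PERK branch most targets were raised at both times. Of 19 ATF4 and CHOP targets, 17 were raised at each time and 16 were lasting, and the median log2 change was 2.36 at 36 h and 1.90 at 12 h. The difference between times passed for 3 of the 19, lower at 36 h for Atf3 and Ppp1r15a and higher for Tnfrsf10b. Atf3, a stress factor of the ATF family (chromosome 1, 191170296 to 191183333), had 31.4 and 47.4 CPM with CPA and 20.5 and 18.7 CPM untreated at 36 h, against 157 and 166 CPM with CPA and 6.86 and 11.9 CPM untreated at 12 h. Its rise was 0.99 at 36 h and 4.14 at 12 h, and the difference of -3.15 ± 0.30 (adjusted p = 0.00432) was the largest of the lasting genes that had a smaller rise at 36 h. The untreated libraries at 36 h also lay above those at 12 h (log2 1.09, adjusted p = 0.0628, not passed).

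Ppp1r15a encodes GADD34, the phosphatase subunit that lets translation resume after PERK has slowed it. It had 135 and 199 CPM with CPA and 27.0 and 34.2 CPM untreated at 36 h, against 420.3 and 421 CPM with CPA and 30.2 and 34.7 CPM untreated at 12 h. For Ppp1r15a the difference was -1.27 ± 0.22 (adjusted p = 0.0288, and 0.0637 with all 20 libraries). Ddit3, which encodes CHOP, was raised by 3.34 ± 0.24 at 36 h and 4.46 ± 0.24 at 12 h, and its difference of -1.12 ± 0.31 did not pass (adjusted p = 0.129). Tnfrsf10b, a death receptor that CHOP is known to induce, went the other way and belongs to the late genes, with 30.9 and 79.9 CPM with CPA and 11.6 and 23.7 CPM untreated at 36 h, against 18.8 and 32.3 CPM with CPA and 13.8 and 25.04 CPM untreated at 12 h. For Tnfrsf10b the difference was 1.19 ± 0.24 (adjusted p = 0.0449). Its replicates differed by more than the untreated and CPA groups at 12 h did, and the groups are separate at 36 h only.

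Among the sensors themselves, Eif2ak3, the gene of PERK (chromosome 6, 70844484 to 70905241), was transient. It had 85.9 and 72.1 CPM with CPA and 86.4 and 85.4 CPM untreated at 36 h, against 135 and 139.6 CPM with CPA and 79.5 and 69.9 CPM untreated at 12 h. At 36 h the CPA libraries were at or below the untreated level (log2 -0.13 ± 0.13), and at 12 h they were raised by 0.88 (difference -1.01 ± 0.19, adjusted p = 0.0355). It was the only 1 of 17 sensors and factors of the response whose difference passed; 9 of the 17 were raised at 36 h and 12 at 12 h. Xbp1 was raised by 1.26 at 36 h and 0.68 at 12 h (difference 0.58 ± 0.18, adjusted p = 0.163), and Atf6 by 1.01 and 1.61 (difference -0.61 ± 0.18, adjusted p = 0.15); gene counts do not show the splicing of Xbp1. Atp2a2, the SERCA pump that CPA blocks, was raised by 0.58 at 36 h and 1.12 at 12 h, without a difference that passed (adjusted p = 0.281).

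Genes of amino acid synthesis and transport, a main output of ATF4, were raised in 19 of 21 cases at 36 h and 14 of 21 at 12 h. The median log2 change was 2.51 at 36 h and 1.40 at 12 h, the median difference 0.67, and for 0 of 21 genes did the difference pass. The untreated replicates at 12 h were far apart in Psat1 and Asns, and in Psat1 the CPA replicates at 36 h were too. Psat1, an enzyme of serine synthesis, had 362 and 199.9 CPM with CPA and 39.6 and 58.5 CPM untreated at 36 h, against 398 and 291 CPM with CPA and 154 and 278 CPM untreated at 12 h. Asns, asparagine synthetase, had 575 and 436 CPM with CPA and 204 and 213 CPM untreated at 36 h, against 559 and 493 CPM with CPA and 237 and 434 CPM untreated at 12 h. For both, untreated replicate 2 at 12 h came close to the CPA libraries, which no untreated library did at 36 h.

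The same spread touched other targets of this branch. Chac1, which breaks down glutathione, was at 72.1 and 73.4 CPM with CPA and 3.89 and 3.17 CPM untreated at 36 h, against 89.3 and 94.0 CPM with CPA and 1.86 and 17.1 CPM untreated at 12 h, and no comparison passed for it. Trib3, a pseudokinase induced by CHOP, had 35.6 and 67.4 CPM with CPA and 1.72 and 2.42 CPM untreated at 36 h, against 53.8 and 65.1 CPM with CPA and 1.92 and 8.85 CPM untreated at 12 h, and was raised at both times without a difference that passed (adjusted p = 0.546). Atf4 itself was raised by 1.87 at 36 h and 1.79 at 12 h (difference 0.07 ± 0.51). Slc7a11, the cystine importer, had 15.4 and 3.44 CPM with CPA and 0.458 and 0.0440 CPM untreated at 36 h, against 30.7 and 12.7 CPM with CPA and 0.252 and 0.712 CPM untreated at 12 h, and its difference of -0.07 ± 2.88 has an error too wide to place it. Of 20 tRNA synthetases 14 were raised at 36 h and 11 at 12 h, and for 0 did the difference pass.

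Among the 26 transient rises were Fgf3, Ano1, Hhip and Txnip. Fgf3, a fibroblast growth factor (chromosome 7, 144838612 to 144843348), had 0.646 and 3.77 CPM with CPA and 1.49 and 2.02 CPM untreated at 36 h, against 10.2 and 12.7 CPM with CPA and 0.252 and 0.623 CPM untreated at 12 h. Ano1, a chloride channel opened by calcium (chromosome 7, 144588549 to 144752026), had 1.17 and 1.88 CPM with CPA and 2.40 and 2.20 CPM untreated at 36 h, against 7.06 and 15.0 CPM with CPA and 0.944 and 0.978 CPM untreated at 12 h. In both genes the CPA libraries at 12 h were above all others and the other 6 were low; the differences were -4.67 ± 0.74 (adjusted p = 0.0239) and -4.00 ± 0.51 (adjusted p = 0.0101). Fgf15 followed the same course at 12 h but was lower with CPA than without at 36 h, so that it counts as reversed. It had 2.46 and 1.82 CPM with CPA and 9.04 and 5.81 CPM untreated at 36 h, against 26.7 and 37.4 CPM with CPA and 2.58 and 3.38 CPM untreated at 12 h, and its difference of -5.16 ± 0.42 (adjusted p = 0.00432) was the largest negative one among the named genes.

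These 3 genes are neighbours. Between Ppfia1 and Ccnd1 on chromosome 7, 8 protein-coding genes are annotated and 7 were tested; Ano1, Fgf3, Fgf15 and Ccnd1 are 4 of the 192 genes with a called difference and lie within 351 kb. Ppfia1, Fadd and Oraov1 in the same stretch were not called, with differences of -0.18, -0.44 and -0.36, and Fgf4, with 11 reads over the 8 libraries, was not tested. The stretch was noticed after the values were seen, and whether the neighbours move together was not tested.

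Hhip, a membrane protein that binds Hedgehog ligands and limits their signal, had 7.95 and 3.64 CPM with CPA and 6.52 and 4.62 CPM untreated at 36 h, against 47.5 and 24.2 CPM with CPA and 4.97 and 4.76 CPM untreated at 12 h. At 36 h its CPA and untreated libraries overlapped, and the difference was -2.80 ± 0.36 (adjusted p = 0.0101). Its promoter (minus strand, chr8:80058009-80058258, the 250 bases before the RefSeq start in GRCm38.p6) is shown because it is 1 of 2 among the 39 that hold the cyclic AMP response element, given in capitals, from 75 bases before the start.
Hhip: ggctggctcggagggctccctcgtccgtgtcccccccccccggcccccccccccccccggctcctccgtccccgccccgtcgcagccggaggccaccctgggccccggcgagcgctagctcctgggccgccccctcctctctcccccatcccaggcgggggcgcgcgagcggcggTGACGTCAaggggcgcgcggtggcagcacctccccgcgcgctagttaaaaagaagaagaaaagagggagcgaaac

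Txnip, which binds thioredoxin and restrains glucose uptake, had 93.7 and 56.8 CPM with CPA and 252 and 112 CPM untreated at 36 h, against 204 and 246 CPM with CPA and 76.3 and 36.4 CPM untreated at 12 h. For Txnip the difference was -3.36 ± 0.48 (adjusted p = 0.0354). The untreated libraries were higher at 36 h than at 12 h, though that comparison did not pass (log2 1.67, adjusted p = 0.0932). Its relative Arrdc4, named after its values were seen, had 80.5 and 64.1 CPM with CPA and 121 and 73.8 CPM untreated at 36 h, against 82.6 and 107 CPM with CPA and 41.4 and 29.0 CPM untreated at 12 h. For Arrdc4 the difference was -1.88 ± 0.32 (adjusted p = 0.0347, and 0.0912 with all 20 libraries). In Arrdc4 the untreated cultures rose with time (log2 1.46, adjusted p = 0.036), and the CPA cultures gave -0.42 (adjusted p = 0.261). The same was seen in part for Zcchc12, a zinc finger protein of neurons, which changed by -0.49 at 36 h, not passed, and was raised by 1.62 at 12 h (difference -2.11 ± 0.26, adjusted p = 0.00964) while untreated cultures rose by 1.12 (adjusted p = 0.0341).

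Bcl2l11, the BH3-only death protein BIM, had 17.0 and 17.99 CPM with CPA and 20.1 and 24.5 CPM untreated at 36 h, against 45.1 and 32.6 CPM with CPA and 21.2 and 20.4 CPM untreated at 12 h. CPA raised it by 0.89 at 12 h, where the groups did not overlap, and the difference was -1.26 ± 0.26 (adjusted p = 0.0478, and 0.0506 with all 20 libraries). Nts, the neuropeptide neurotensin, had a log2 change of 0.29 at 36 h, not passed, and rose by 2.39 at 12 h (difference -2.10 ± 0.40, adjusted p = 0.0397). Tes, a protein of cell adhesion sites, was at 85.1 and 53.6 CPM with CPA and 86.0 and 79.1 CPM untreated at 36 h, against 207 and 181 CPM with CPA and 89.0 and 82.8 CPM untreated at 12 h. Its CPA libraries at 12 h were above the other 6 (difference -1.45 ± 0.23, adjusted p = 0.0187, and 0.0922 with all 20 libraries).

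The transient falls, which outnumbered the transient rises, included genes of the cranial motor neuron and of its cytoskeleton and synapses. Phox2a, the factor of cranial motor neurons (chromosome 7, 101818313 to 101822726), had 121 and 168 CPM with CPA and 153 and 211 CPM untreated at 36 h, against 54.4 and 79.3 CPM with CPA and 125 and 213 CPM untreated at 12 h. Within each replicate CPA libraries were below untreated ones at both times, by less at 36 h (log2 -0.34 ± 0.13, not passed) than at 12 h (-1.31 ± 0.14), and the difference was 0.98 ± 0.19 (adjusted p = 0.0412). That call ended in the fit of all 20 libraries with the block (adjusted p = 0.598). Reads of the transgene and of the cell's own Phox2a cannot be told apart here. In bulk RNA, fewer cells of a type and less RNA per cell cannot be told apart either.

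Rgs4, which shortens G protein signals in neurons, had 565 and 372 CPM with CPA and 516 and 463 CPM untreated at 36 h, against 223 and 213 CPM with CPA and 584 and 526 CPM untreated at 12 h. For Rgs4 the difference was 1.26 ± 0.23 (adjusted p = 0.0306), which did not pass with all 20 libraries either (adjusted p = 0.241). The CPA libraries at 12 h were the lowest of the 8. Phox2a and Rgs4 were the 2 of 10 cranial motor neuron genes whose difference passed, both higher at 36 h, where 0.675% of all genes were. Of the 10, 2 fell and 1 rose at 36 h, and 5 fell and 1 rose at 12 h, beside 7.09% and 5.94% of all genes at 36 h and 8.35% and 8.19% at 12 h. In a list of 19 general motor neuron genes 8 fell at 36 h and 10 at 12 h, and for 0 of them did the difference pass. The summed level of the 6 neuron markers was 3464 to 4752 CPM with CPA and 4944 to 5967 CPM untreated at 36 h, against 2997 to 3813 CPM with CPA and 4844 to 5598 CPM untreated at 12 h, and was thus lower with CPA at both times.

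Of 29 genes of the neuronal cytoskeleton, 16 fell at 36 h and 15 at 12 h, beside 7.09% and 8.35% of all genes, and 0 rose. The tubulins Tubb2a and Tuba1b were 2 of the transient falls. Tubb2a had 385 and 268 CPM with CPA and 431 and 354 CPM untreated at 36 h, against 161 and 116 CPM with CPA and 367 and 338 CPM untreated at 12 h. For Tubb2a the difference was 1.09 ± 0.21 (adjusted p = 0.0376, and 0.0591 with all 20 libraries). Tuba1b gave 1.19 ± 0.24 (adjusted p = 0.0478), and counts of tubulin genes are uncertain because reads shared by near-identical copies are left out of them. Nefl, the light neurofilament chain of motor axons, was lowered at both times, with 985 and 598 CPM with CPA and 1495 and 1196 CPM untreated at 36 h, against 993 and 831 CPM with CPA and 2000 and 1424 CPM untreated at 12 h, and its difference was 0.10 ± 0.22.

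Nrxn3, a presynaptic adhesion molecule (chromosome 12, 88722701 to 90334935), had 58.9 and 29.8 CPM with CPA and 61.0 and 37.3 CPM untreated at 36 h, against 15.2 and 9.38 CPM with CPA and 45.8 and 28.9 CPM untreated at 12 h. Its replicates differed by a similar factor in each group, and within each replicate the CPA library at 12 h was the lowest (difference 1.43 ± 0.20, adjusted p = 0.0127). It was the only 1 of 28 genes of synaptic vesicles and release to pass. Of the 28, 10 fell and 1 rose at 36 h, and 12 fell and 1 rose at 12 h. Among all genes 7.09% fell and 5.94% rose at 36 h, and 8.35% fell and 8.19% rose at 12 h. Plxnd1, a receptor for guidance cues of the semaphorin family, had 41.7 and 45.3 CPM with CPA and 24.7 and 55.3 CPM untreated at 36 h, against 13.2 and 19.7 CPM with CPA and 40.9 and 72.9 CPM untreated at 12 h. For Plxnd1 the difference was 1.98 ± 0.31 (adjusted p = 0.0201).

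Further transient falls were Adora2a, Sphkap, Lpar1, Mab21l1 and Tyro3. Adora2a, an adenosine receptor, had 10.8 and 5.07 CPM with CPA and 8.12 and 10.8 CPM untreated at 36 h, against 1.74 and 1.53 CPM with CPA and 13.4 and 16.7 CPM untreated at 12 h. For Adora2a the difference was 2.92 ± 0.49 (adjusted p = 0.0301). Sphkap, which anchors protein kinase A, had 13.9 and 13.5 CPM with CPA and 22.4 and 17.2 CPM untreated at 36 h, against 0.963 and 2.09 CPM with CPA and 14.1 and 12.3 CPM untreated at 12 h. For Sphkap the difference was 2.57 ± 0.40 (adjusted p = 0.0201, and 0.209 with all 20 libraries). In each the CPA libraries at 12 h were far below the other 6. Lpar1, a receptor for lysophosphatidic acid, had a log2 change of 1.28 at 36 h that did not pass (adjusted p = 0.0589) and fell by 2.32 at 12 h. Mab21l1, a gene of neural development, was at 71.4 and 38.8 CPM with CPA and 55.5 and 48.4 CPM untreated at 36 h, against 18.7 and 15.6 CPM with CPA and 87.0 and 71.2 CPM untreated at 12 h. For Mab21l1 the difference was 2.25 ± 0.25 (adjusted p = 0.00644). Tyro3, a receptor kinase, gave 1.62 ± 0.22 (adjusted p = 0.0127). For 44 of the 49 transient falls the CPA cultures were themselves higher at 36 h than at 12 h, and for 3 the untreated ones differed between the times. Of all genes 5.03% and 0.796% did so, and the 49 were chosen by calls on the same libraries.

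**Figure D3:**
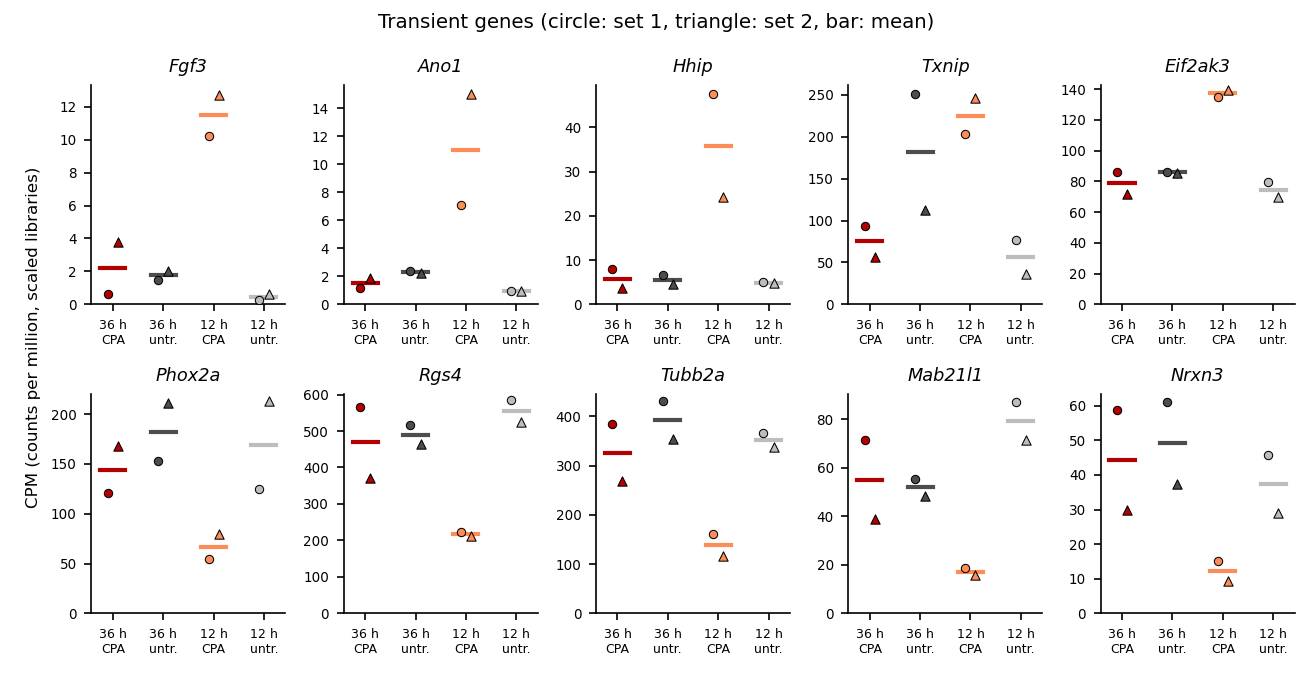
Levels (CPM) of 10 transient genes in each of the 8 NIP libraries, by group on the horizontal axis (circles for replicate 1, triangles for replicate 2, bars for the mean). In the upper row the CPA libraries at 12 h are high, except that untreated Txnip at 36 h overlaps them, and in the lower row they are low; Rgs4 had 565 and 372 CPM with CPA at 36 h against 223 and 213 CPM with CPA at 12 h.

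Among the 30 late rises were Kcnc4, Tfeb, Tns2, Zfp36 and Gss. Kcnc4 encodes a fast voltage-gated potassium channel subunit (chromosome 3, 107438298 to 107460287). It had 91.3 and 79.7 CPM with CPA and 26.4 and 23.7 CPM untreated at 36 h, against 41.5 and 33.1 CPM with CPA and 40.0 and 34.0 CPM untreated at 12 h. CPA libraries at 36 h were the highest and untreated ones at 36 h the lowest, and the groups at 12 h overlapped (difference 1.76 ± 0.18, adjusted p = 0.00432).

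Tfeb, a transcription factor that switches on lysosome and autophagy genes, had 11.3 and 13.7 CPM with CPA and 2.29 and 3.25 CPM untreated at 36 h, against 7.34 and 8.05 CPM with CPA and 5.47 and 9.92 CPM untreated at 12 h. For Tfeb the difference was 2.13 ± 0.34 (adjusted p = 0.0187, and 0.168 with all 20 libraries). The untreated cultures fell with time (log2 -1.44, adjusted p = 0.036). Of 29 genes of autophagy and lysosomes, Tfeb was the only 1 whose difference passed; 2 of the 29 rose at 36 h, and 3 rose and 1 fell at 12 h, where 5.94% of all genes rose at 36 h and 8.19% rose and 8.35% fell at 12 h. Tns2, which links integrins to actin, had 36.3 and 34.6 CPM with CPA and 6.29 and 9.81 CPM untreated at 36 h, against 17.2 and 13.2 CPM with CPA and 15.9 and 21.3 CPM untreated at 12 h. For Tns2 the difference was 2.39 ± 0.32 (adjusted p = 0.0127).

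Zfp36, which speeds the decay of messengers of inflammation, and Gss, glutathione synthetase, were also late rises, with differences of 1.97 ± 0.32 (adjusted p = 0.0201) and 1.38 ± 0.28 (adjusted p = 0.0444). Gss had 14.5 and 17.3 CPM with CPA and 9.27 and 9.24 CPM untreated at 36 h, against 9.03 and 7.13 CPM with CPA and 11.7 and 12.7 CPM untreated at 12 h. It was the only 1 of 18 NRF2 and glutathione genes to pass. Tuba4a, an alpha tubulin, was raised by 1.02 at 36 h with a log2 change of -0.42 at 12 h (difference 1.45 ± 0.22, adjusted p = 0.0187, and 0.488 with all 20 libraries), and C2cd4b, a low-level gene, was at 5.81 and 5.58 CPM with CPA and 0.686 and 1.06 CPM untreated at 36 h, against 1.28 and 0.805 CPM with CPA and 1.70 and 1.11 CPM untreated at 12 h. C2cd4b did not pass with all 20 libraries (adjusted p = 0.0607).

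Among the 37 late falls were Ccnd1, Adamts2, Jun and Nkx6-1. Ccnd1, cyclin D1, which carries cells into the division cycle (chromosome 7, 144929931 to 144939831), had 6.34 and 7.34 CPM with CPA and 58.7 and 55.2 CPM untreated at 36 h, against 10.2 and 14.3 CPM with CPA and 18.03 and 12.4 CPM untreated at 12 h. Untreated cultures at 36 h stood far above the other 6 libraries (36 h against 12 h untreated, log2 1.90, adjusted p = 0.00862), and CPA cultures at 36 h were the lowest. The difference was -2.75 ± 0.32 (adjusted p = 0.00849, and 0.0756 with all 20 libraries). For 0 of 24 proliferation genes did the difference in response pass, with a median of 0.50, where that of all genes was 0.01. Of these 24 genes 0 were called at 36 h, 1 rose at 12 h, and 1 was lower in CPA cultures at 36 h than at 12 h. Their summed level was highest in CPA replicate 2 at 36 h, at 373 CPM against 131 CPM in its partner.

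The same course, a rise with time that was seen in untreated cultures and not in CPA cultures, was measured for other late falls. Adamts2, a protease that trims procollagen, had 2.50 and 6.10 CPM with CPA and 35.4 and 39.2 CPM untreated at 36 h, against 2.15 and 5.36 CPM with CPA and 3.21 and 6.18 CPM untreated at 12 h. For Adamts2 the difference was -2.90 ± 0.40 (adjusted p = 0.0148). Tgfb2, a secreted growth factor, had 5.97 and 3.96 CPM with CPA and 26.3 and 16.4 CPM untreated at 36 h, against 5.64 and 4.87 CPM with CPA and 8.65 and 5.11 CPM untreated at 12 h. For Tgfb2 the difference was -1.75 ± 0.29 (adjusted p = 0.0229). Sez6l, a neuronal membrane protein, had 89.8 and 107 CPM with CPA and 243 and 269 CPM untreated at 36 h, against 119 and 169 CPM with CPA and 118 and 124 CPM untreated at 12 h. For Sez6l the difference was -1.61 ± 0.20 (adjusted p = 0.00995, and 0.0521 with all 20 libraries). In all 3 the untreated libraries at 36 h were the highest of the 8, and the change in untreated cultures passed, with adjusted p = 0.00715, 0.0087 and 0.0169. The CPA cultures of Sez6l changed too, falling with time (log2 -0.54, adjusted p = 0.0454). In Adamts2 and Tgfb2 the change in CPA cultures did not pass (adjusted p = 0.734 and 0.765). Over the whole class, untreated cultures differed between the times for 11 of the 37 late falls and CPA cultures for 24. Of all genes 0.796% and 9.16% did so, and the class was chosen by calls on the same libraries.

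In other late falls, Jun and Ecel1 among them, the CPA cultures moved and the change in untreated cultures did not pass. Jun, a factor of the AP-1 family that neurons induce on axon injury (chromosome 4, 95049036 to 95052222), had 70.2 and 109.6 CPM with CPA and 191 and 204 CPM untreated at 36 h, against 171 and 225 CPM with CPA and 132 and 145 CPM untreated at 12 h. At 36 h the CPA libraries were below all others, and at 12 h they were above the untreated ones by a margin that did not pass (log2 0.50 ± 0.16, adjusted p = 0.053); the difference was -1.67 ± 0.22 (adjusted p = 0.0113). Ecel1, a protease induced in injured neurons, had 26.4 and 15.2 CPM with CPA and 73.0 and 61.5 CPM untreated at 36 h, against 63.7 and 44.1 CPM with CPA and 63.5 and 57.7 CPM untreated at 12 h. For Ecel1 the difference was -1.53 ± 0.24 (adjusted p = 0.0187). With Atf3 and Nts these were the 4 of 24 axon injury genes whose difference passed, and all 4 were lower at 36 h, beside 0.690% of all genes.

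Nkx6-1, a homeobox factor of motor neuron progenitors, had 30.6 and 27.1 CPM with CPA and 68.6 and 63.5 CPM untreated at 36 h, against 75.4 and 63.5 CPM with CPA and 81.4 and 67.5 CPM untreated at 12 h. For Nkx6-1 the difference was -1.10 ± 0.18 (adjusted p = 0.0201, and 0.0922 with all 20 libraries). The CPA libraries at 36 h were the lowest and the other 6 overlapped. Dcc, the receptor by which growing axons sense netrin, had 14.1 and 11.4 CPM with CPA and 33.1 and 20.2 CPM untreated at 36 h, against 28.5 and 23.7 CPM with CPA and 24.0 and 11.5 CPM untreated at 12 h. For Dcc the difference was -1.66 ± 0.29 (adjusted p = 0.0285). Dcc and Plxnd1 were the 2 of 31 axon guidance genes whose difference passed, in opposite directions. The list does not hold every guidance gene. Outside it Unc5d, Sema6a and Plxnc1 were late falls like Dcc, and Ntng2 was a transient fall like Plxnd1. Of the 31, 10 fell and 1 rose at 36 h, and 12 fell and 1 rose at 12 h. Among all genes 7.09% fell and 5.94% rose at 36 h, and 8.35% fell and 8.19% rose at 12 h.

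**Figure D4:**
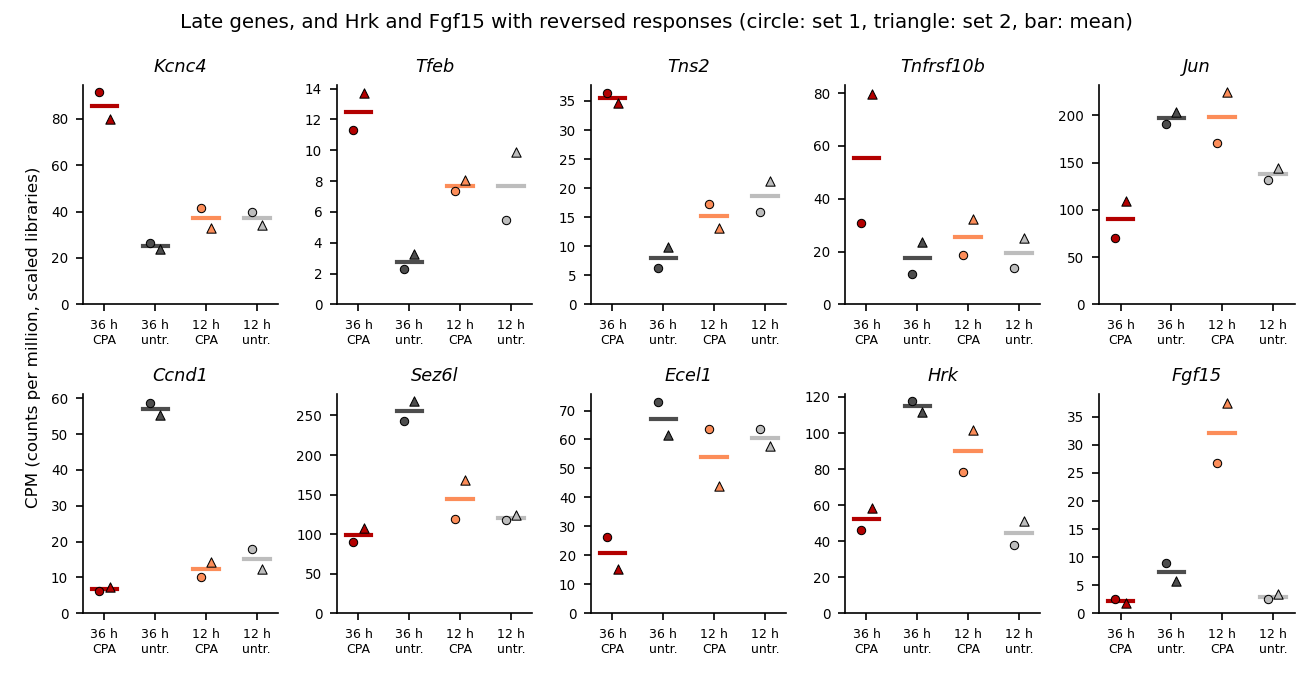
Levels (CPM) of late genes, and of Hrk and Fgf15 whose response reversed, in each of the 8 NIP libraries, by group on the horizontal axis (circles for replicate 1, triangles for replicate 2, bars for the mean). CPA libraries at 36 h are the highest for Kcnc4, Tfeb and Tns2, and untreated libraries at 36 h are the highest for Ccnd1, Sez6l and Hrk; Kcnc4 had 91.3 and 79.7 CPM with CPA and 26.4 and 23.7 CPM untreated at 36 h.

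Genes with opposite responses included the death gene Hrk and Nrn1, a gene of neurite growth. Hrk, a BH3-only protein that promotes death of neurons deprived of growth factors (chromosome 5, 118169764 to 118189478), had 46.3 and 58.2 CPM with CPA and 118 and 112 CPM untreated at 36 h, against 78.5 and 102 CPM with CPA and 37.7 and 51.3 CPM untreated at 12 h. CPA lowered it at 36 h (log2 -1.15 ± 0.15) and raised it at 12 h (1.02 ± 0.15), and the difference was -2.17 ± 0.22 (adjusted p = 0.00432). Untreated cultures rose by 1.39 with time (adjusted p = 0.00862). With Bcl2l11 it was 1 of 2 among 20 BCL2 family and death genes whose difference passed. Of the 20, 1 rose and 2 fell at 36 h, and 4 rose at 12 h. Among all genes 5.94% rose and 7.09% fell at 36 h, and 8.19% rose at 12 h.

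Nrn1, neuritin, which promotes the growth of neurites, had 94.0 and 70.5 CPM with CPA and 58.9 and 44.9 CPM untreated at 36 h, against 37.9 and 36.0 CPM with CPA and 92.8 and 94.1 CPM untreated at 12 h. For Nrn1 the difference was 2.01 ± 0.21 (adjusted p = 0.00464). Hspb8, a small heat shock protein that works with autophagy on misfolded proteins, had 55.6 and 42.8 CPM with CPA and 18.9 and 22.3 CPM untreated at 36 h, against 27.3 and 23.0 CPM with CPA and 37.6 and 37.3 CPM untreated at 12 h. For Hspb8 the difference was 1.81 ± 0.23 (adjusted p = 0.0101, and 0.066 with all 20 libraries). In both the CPA libraries were above the untreated ones at 36 h and below them at 12 h. For Nrn1 untreated cultures fell with time (log2 -0.87, adjusted p = 0.036) and CPA cultures rose (1.14, adjusted p = 0.00353). For Hspb8 the fall in untreated cultures did not pass (log2 -0.85, adjusted p = 0.054), and CPA cultures rose (0.97, adjusted p = 0.00969). Hspb8 was the only 1 of 24 cytosolic heat shock genes to pass. Of the 24, 2 rose at 36 h and 3 fell at 12 h, beside 5.94% and 8.35% of all genes.

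Prox2, a homeobox factor, and Chrnb4, a subunit of nicotinic receptors that was named after its values were seen, turned in the same sense. Prox2 had 14.1 and 20.1 CPM with CPA and 6.52 and 13.1 CPM untreated at 36 h, against 6.51 and 9.34 CPM with CPA and 21.5 and 34.7 CPM untreated at 12 h. For Prox2 the difference was 2.63 ± 0.25 (adjusted p = 0.00432). At 36 h its lower CPA library lay just above the higher untreated one, and at 12 h both CPA libraries were well below the untreated ones. With time its untreated cultures fell (log2 -1.52, adjusted p = 0.00862) and its CPA cultures rose (1.11, adjusted p = 0.00727). Chrnb4 had 152 and 94.1 CPM with CPA and 70.2 and 71.3 CPM untreated at 36 h, against 64.0 and 43.3 CPM with CPA and 111 and 130.2 CPM untreated at 12 h. For Chrnb4 the difference was 1.97 ± 0.31 (adjusted p = 0.0215).

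Lasting changes seldom grew or shrank by a margin that passed. Apart from the 15 rises described, the fall was smaller at 36 h for Pigz and Tns1, the rise was larger for Rin1 and the fall larger for Cdo1 and Stk32b; these 5 were singled out by their class after the values were seen. Tns1 and Rin1 did not pass with all 20 libraries (adjusted p = 0.143 and 0.426). Pigz, an enzyme of membrane anchors, had 8.68 and 8.31 CPM with CPA and 14.9 and 13.5 CPM untreated at 36 h, against 1.05 and 0.886 CPM with CPA and 9.78 and 8.18 CPM untreated at 12 h. Rin1, which acts on Ras signals and endosomes, had 39.0 and 31.6 CPM with CPA and 3.55 and 4.79 CPM untreated at 36 h, against 19.1 and 12.7 CPM with CPA and 6.54 and 6.18 CPM untreated at 12 h. Among the lasting genes with the smallest p at both times were Stk32a, a kinase, and Casz1, a zinc finger factor. Stk32a was raised by 4.11 ± 0.23 at 36 h and 3.97 ± 0.21 at 12 h, and Casz1 changed by -1.93 ± 0.14 and -1.54 ± 0.14. A difference that missed the threshold, as in these 857 genes, does not show that the responses were equal.

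In several further lists no gene passed for the difference in response, which does not show that they responded alike at both times. These were 27 ion channels, 24 genes of calcium handling, 23 of cholesterol synthesis, 19 p53 targets, 31 proteasome subunits, 30 of the respiratory chain, 30 ribosomal proteins, 24 of glycolysis and hypoxia and 15 interferon and NF-kB genes. The lists do not hold every gene of a kind. The channel genes Kcnc4, Ano1, Kcnd3 and Piezo1 and the calcium exchanger gene Slc24a3 passed and are in none of these lists. In CPA cultures 9 of the 27 ion channels were higher at 36 h than at 12 h, beside 5.03% of all genes, and 4 of the 24 calcium genes were higher and 1 lower. The median difference in response was 0.50 in cholesterol synthesis, 0.23 in the proteasome and 0.29 in ribosomal proteins, where that of all genes was 0.01. Genes of a list are not independent. In cholesterol synthesis 1 gene rose at 36 h, and 1 rose and 5 fell at 12 h. Among p53 targets 8 rose at 36 h and 5 at 12 h. Of all genes 5.94% rose at 36 h, and 8.19% rose and 8.35% fell at 12 h. Markers of other cells gave large medians without a call: the median difference was 1.12 over 18 endoderm and endothelium genes, 0.88 over 9 mesenchyme genes and 0.50 over 24 proliferation genes, and in the first of these CPA replicate 2 at 36 h held the high values. That library also had the highest proliferation sum, 373 CPM against 131 CPM in its partner. Ribosomal protein genes took 3.61% of its gene reads and 1.22% to 2.33% in the other libraries. The part of this library in these medians was not tested. The mesenchyme markers Dcn and Lum and the glial marker Gfap were at 0 in all 8 libraries.

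**Figure D5:**
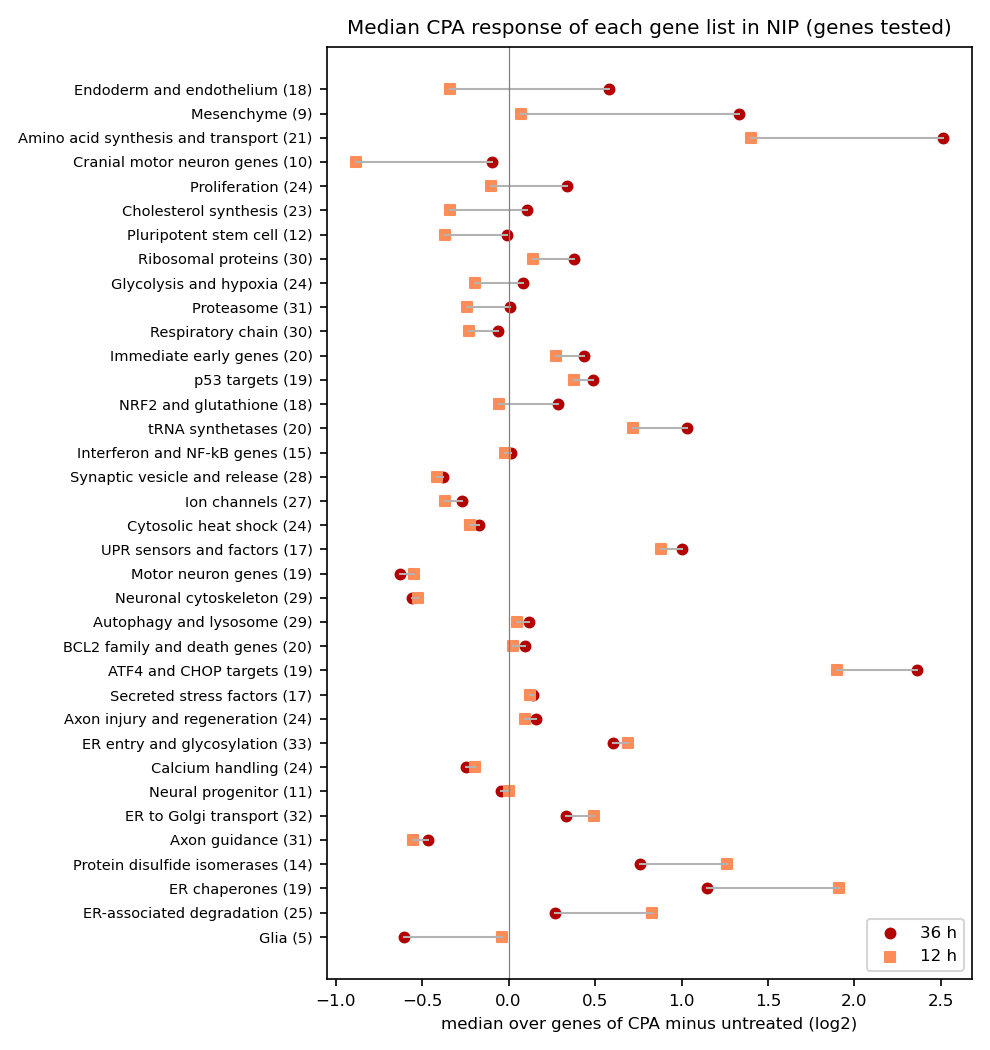
Median log2 change of CPA against untreated NIP cultures for each list of genes, at 36 h (circles) and at 12 h (squares), with the number of tested genes in brackets and a line joining the 2 times. The ER chaperones lie at 1.15 at 36 h and 1.91 at 12 h, and amino acid genes at 2.51 at 36 h and 1.40 at 12 h.

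The spinal type NIL, treated and sampled in the same way in 8 further libraries, was used to ask which changes of response differed between the types. In a fit of both types with the replicate number as a block within each, the difference between times passed for 337 of 14745 genes in NIP (180 higher and 157 lower at 36 h) and for 127 in NIL (27 higher and 100 lower, 0.861%). The 15 lasting genes with a smaller rise at 36 h in NIP all had a negative difference in NIL, and 5 of them were called there. Of all genes 0.678% were called lower in NIL. Hhip was among the transient genes called in NIL too, with -2.46 (adjusted p = 0.00165), and Hrk among the reversed ones, with -1.59 (adjusted p = 0.00425). For the late rises in NIP, 26 of 30 had a positive difference in NIL and 0 were called, beside 0.183% of all genes called higher there. A shared sign was also common without a call. Of the 439 lasting rises whose difference was not called in NIP, 289 had the same sign in both types.

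The test of the difference itself, NIP minus NIL, passed for 3 genes (0.0203%), Kcnc4, Lrrc8c and Syt9, with 921 genes at an unadjusted p under 0.05. Kcnc4, a late rise in NIP, changed by -0.32 ± 0.18 at 36 h and 0.14 ± 0.18 at 12 h in NIL, so that the types differed by 2.22 ± 0.33 (adjusted p = 0.025). Lrrc8c, a subunit of volume-regulated anion channels, was raised in NIP at both times, by 0.55 at 36 h and 0.53 at 12 h, and in NIL changed by -0.12 at 36 h and 1.64 at 12 h. Syt9, a calcium sensor of vesicle release, changed by 0.60 at 36 h and -0.42 at 12 h in NIP, and by -0.35 at 36 h and 1.07 at 12 h in NIL. DESeq2 called 34 genes in the same comparison, a shared block called Syt9 alone, and without a block 0 genes passed. Kcnc4 thus passed in the main fit and with DESeq2, but not with a shared block (adjusted p = 0.192) or without a block. No difference between times described above can therefore be said to be particular to NIP in every fit.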

How the data were processed

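Total RNA of 8 NIP libraries was depleted of ribosomal RNA and made into libraries with a KAPA RNA HyperPrep kit, per the labels' protocols. The authors deposited whole-number read counts for 24421 gene symbols and 5 summary lines, which were left out. Per the submitters' processing notes the tools were HTSeq 0.6.1p1, Picard, Bowtie2 2.3.2 and TopHat2 2.1.1, on GRCm38 (mm10); the annotation release and strand setting are not given in the sources used here, so overlapping and antisense genes cannot be told apart. Reads mapped to several places, 18.2% to 43.6% per library, are left out of the counts, which lowers close paralogs.

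In R 4.3.3, edgeR 4.0.16 filtered genes by group (filterByExpr), took TMM factors and fitted a robust quasi-likelihood model with a mean per group and the replicate number as a block (5 coefficients, 3 residual degrees of freedom; coefficient of variation 14.2%). P-values were adjusted by Benjamini and Hochberg within each comparison over 14065 genes, with a threshold of 0.05. CPM values use scaled library sizes. The numbers pair the libraries: deviations of replicate 1 from 2 correlated across genes in all 6 pairs of groups (r 0.464 to 0.691). The 2 libraries of each group were distinct, with a chi-square of 39.1 to 304 per degree of freedom. The comparison of NIP with NIL used 16 libraries and 6 residual degrees of freedom. Sequences and coordinates came from RefSeq and GENCODE on GRCm38.

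The members and the gene lists were chosen with earlier results of these data known. Named genes were the 6 largest differences in each direction, 6 genes of each class and direction by the smallest p, up to 4 genes per list and 19 genes of ER stress and motor neurons, 185 in all, of which the text names a part. Alternatives were DESeq2 1.42.0, other size factors, no filter, no block, all 20 libraries, Rn45s left out, and each library left out.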

Additional observations from a re-analysis of the deposited data

Results flagged for a closer look

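The response to CPA differed between 36 h and 12 h in NIP for 192 genes by a test of the difference itself, which is why it is listed here. The report gives the genes, and the count falls to 0 without the replicate block.

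The change of response differed between the cell types NIP and NIL for 3 genes, again by a test of the difference. The difference, NIP minus NIL, was 2.22 on the log2 scale for Kcnc4, 1.78 for Lrrc8c and 2.45 for Syt9. Kcnc4 was a late rise in NIP, while for Lrrc8c and Syt9 the change of response passed in NIL and not in NIP. With DESeq2 the adjusted p of these genes was 0.00035, 0.000193 and 2.55e-05, and without a block it was 1 for each.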

How the results depend on the processing

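With 2 libraries a group, depth limits low genes, and most calls rest on the replicate block. Scaling by other size factors or leaving out Rn45s kept every count within 1.5 times (interaction 193 and 192). DESeq2 gave 453 genes for the difference between times, 489 for untreated 36 h against 12 h, 192 transient and 159 late; no filter on low counts gave 344, 294, 149 and 112. Without the replicate block the difference had 0 genes, CPA at 36 h 352 and at 12 h 527, CPA 36 h against 12 h 3, untreated 36 h against 12 h 0, and the transient, late, lasting and reversed classes 0, 0, 158 and 1; with all 20 libraries and no block these were 2, 344, 696, 56, 0, 1, 0, 182 and 2. All 20 libraries with the block gave 18 reversed genes. For NIP against NIL, no block gave 0, a shared block 1 and DESeq2 34. The causes were not tested.

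Leaving out each library in turn gave 1 to 1119 genes for the difference, 361 to 3436 for CPA at 36 h, 641 to 4052 for CPA at 12 h, 142 to 3597 for CPA 36 h against 12 h, 0 to 842 for untreated 36 h against 12 h, 237 to 1493 lasting, 1 to 371 transient, 0 to 502 late and 2 to 114 reversed. Without the block 1031 genes had an unadjusted p under 0.05 for the difference, and without untreated replicate 1 at 36 h 1307 did.

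Of the 192 genes, 192 were also called by DESeq2, 186 with other size factors, 191 without the filter, 188 without Rn45s and 109 with all 20 libraries and the block. All 192 kept their sign in every one of these fits and in those without a block or without a library, which is likely for genes chosen for a large difference. Uncalled differences changed sign when a library was left out, between -0.73 and 0.64 for Atf4, -1.23 and 1.98 for Chac1, -0.094 and 0.28 for Nefl, -0.22 and 0.46 for Stk32a, -0.050 and 1.57 for Trib3 and -1.75 and 1.45 for Slc7a11, which was also 0.36 with DESeq2, 0.20 without the block and 0.16 with all 20 libraries and no block.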
